A study of Rattus norvegicus with 6 samples.

Results

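The genes described here are those of glycolysis and of the response to low oxygen in the kidney inner medulla of the rat. A list of 36 symbols was looked up in the annotation of the array, and a gene was a member where a probe set carried its symbol alone. This gave 34 members among the 14168 genes measured, since no probe set with a single symbol was found for Pfkfb3 or Bnip3l. Of these, 17 were glycolytic enzymes, 15 were other targets of the hypoxia response (5 transporters and regulators of glycolysis and 10 further hypoxia responsive genes) and 2 were the alpha subunits of the hypoxia-inducible factors. Where a gene had several probe sets, the brightest on average represents it.

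All samples came from male Sprague-Dawley rats of 200 to 250 g kept in metabolic cages, each with an osmotic minipump implanted under the skin of the neck. Vehicle rats received saline at 1 µl/h for 5 d. The rats of the dDAVP group received dDAVP (desmopressin, an agonist of the vasopressin V2 receptor) at 40 ng/h for 5 d. Rats of the withdrawal group received the same infusion, after which the pump was taken out under light enflurane anaesthesia and 3 h passed. Only this group had its pump removed, so the end of the infusion, the removal and the anaesthesia cannot be told apart. Each group had 2 Affymetrix gene arrays, and no label ties the arrays of a group to separate animals, so the p-values measure only the spread between these arrays. The labels name no genetic change.

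Glycolysis splits glucose into pyruvate, and lactate dehydrogenase turns pyruvate into lactate, which monocarboxylate transporters carry across the cell membrane. When oxygen is low, prolyl hydroxylases stop marking the hypoxia-inducible factor alpha subunits for destruction, and the factors then raise the transcription of many glycolytic enzymes, of the glucose transporter Slc2a1 and of genes of pH control, vessel growth and mitophagy. The inner medulla works at low oxygen tension and draws much of its energy from glycolysis.

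Values are log2 intensities, and a difference is the first group named minus the second on that scale. Median intensities of the arrays ran from 156.1 to 182.1 and were lowest in the dDAVP group. The median gene differed by -0.11 between dDAVP and vehicle, by 0.14 between withdrawal and dDAVP and by 0.03 between withdrawal and vehicle, and dim genes shifted more than bright ones. Values after cyclic loess, which brings the median gene to 0, are given where they change a result. Most of 9 measured collecting duct markers were bright, with Aqp2 at 13.14 to 13.40, Slc14a2 at 11.79 to 12.55 and Avpr2 at 11.04 to 11.71. Slc14a2 was also listed as a marker of thin limbs. Dimmer markers of the list were Scnn1g at 9.04 to 9.57 and Elf5 at 7.99 to 8.55. Vehicle replicate 1 and dDAVP replicate 2 stood apart from the other 4 arrays.

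Arrays of the same group differed more in the members than in most genes. The members' median standard deviation within a group was 0.19 on the log2 scale, against 0.11 over all genes, while the range of the 3 group means had a median of 0.21 for the members and of 0.21 for all genes. The other hypoxia targets had a median within-group standard deviation of 0.24 and the glycolytic enzymes 0.16. Further genes of the hypoxia-inducible factor pathway and of glycolysis, described below, had 0.15 and 0.16. The members were also brighter, with a median level of 10.45 against 7.96 over all genes. The spread was not compared at like level. Many members set vehicle replicate 1 and dDAVP replicate 2 apart from the rest. This pair of arrays was chosen after the values were seen, so the shares that follow describe it and test nothing. In 14 of the 34 members (41.2%) these arrays were both above or both below all of the other 4. Over all genes they were both above in 10.9% and both below in 12.7%, together 23.6%. They were separated by a gap of more than 0.2, a size chosen after the data were seen, in 8 members (23.5%), against 6.19% of all genes. After cyclic loess 13 members (38.2%) had this order, against 30.4% of all genes, and 7 (20.6%) passed the gap, against 6.63%. The share of members with the order thus lay nearer to that of all genes after loess than as deposited.

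**Figure D1:**
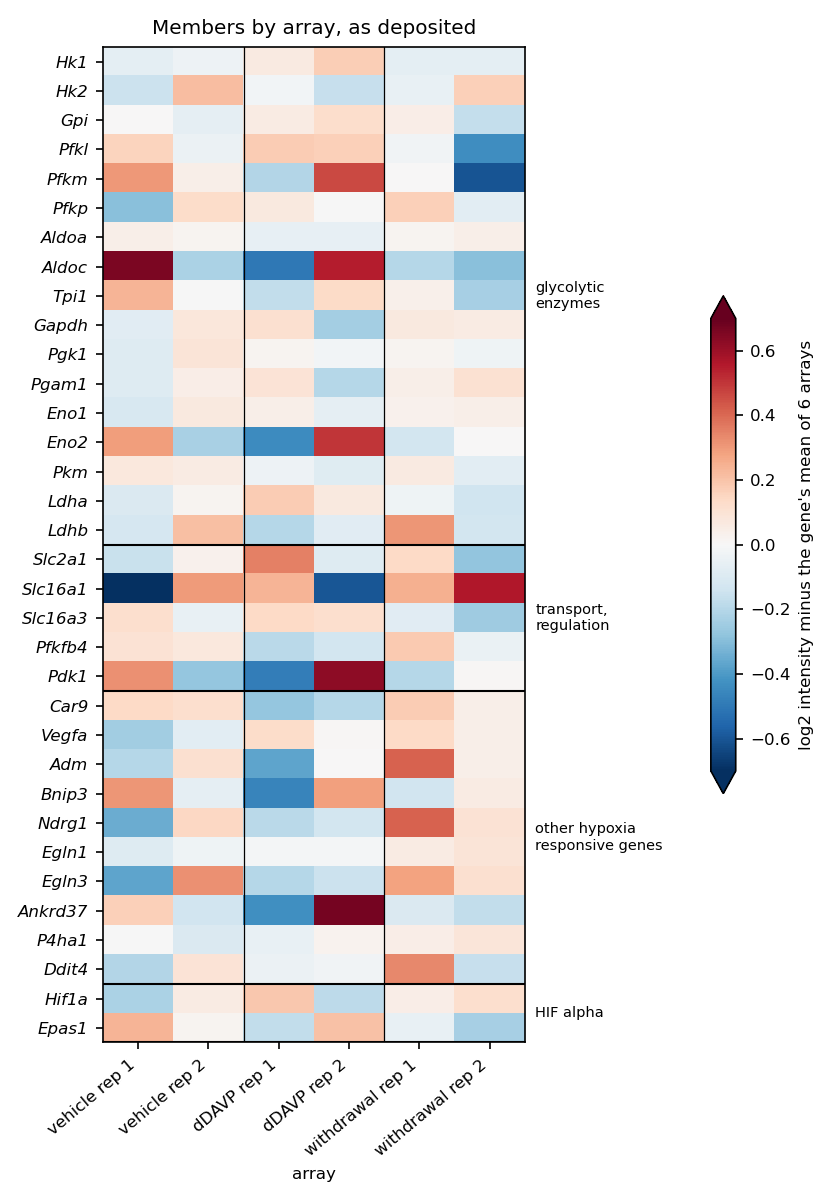
Each row is 1 of the 34 members and each column 1 array, and the colour gives the log2 intensity minus that gene's mean over the 6 arrays, as deposited (the scale ends at -0.7 and 0.7). Aldoc, Eno2, Pdk1, Bnip3 and Ankrd37 are red in vehicle replicate 1 and dDAVP replicate 2, where Slc16a1 is blue.

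The members that were higher in these arrays by more than 0.2 were Aldoc, Eno2, Pfkm, Pdk1, Bnip3 and Ankrd37. Aldoc, the aldolase best known from brain, was at 9.16 and 8.28 in vehicle, at 8.0 and 9.05 in dDAVP and at 8.30 and 8.21 in withdrawal. It was thus high in vehicle replicate 1 and dDAVP replicate 2, by at least 0.75 over every other array, and the groups overlapped. Eno2, the neuronal type of enolase, was at 9.04 and 8.52 in vehicle, 8.31 and 9.25 in dDAVP and 8.62 and 8.75 in withdrawal, with a gap of 0.29. Pdk1, a kinase that holds back pyruvate dehydrogenase and so the use of pyruvate in the citric acid cycle, was at 8.83 and 8.24, at 8.03 and 9.14, and at 8.31 and 8.52 in the same order. Bnip3, which takes part in the removal of mitochondria, was at 10.75 and 10.38, at 9.98 and 10.73, and at 10.31 and 10.50. Ankrd37, an ankyrin repeat protein known as a target of hypoxia-inducible factor 1, was at 9.70 and 9.40, at 9.10 and 10.20, and at 9.43 and 9.36. In all of these the higher vehicle array was replicate 1 and the higher dDAVP array was replicate 2, and both probe sets of Bnip3 had this order.

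The stretches before the starts of these 6 genes are shown because the genes moved together across arrays. Each is the 250 bases before the annotated start in RefSeq, assembly GRCr8, read 5′ to 3′ along the gene. They lie at chr1:203154963-203155212 on the minus strand (Bnip3), chr16:53001257-53001506 on the plus strand (Ankrd37), chr3:77113264-77113513 on the plus strand (Pdk1), chr10:63715294-63715543 on the plus strand (Aldoc), chr4:159267221-159267470 on the minus strand (Eno2) and chr7:131113849-131114098 on the plus strand (Pfkm). Capitals mark ACGTG and GCGTG, the forms of the core of the hypoxia response element, on either strand, so that CACGT and CACGC in the printed strand also count. CACGTG reads as ACGTG on both strands and counts as 2 overlapping matches.
Bnip3: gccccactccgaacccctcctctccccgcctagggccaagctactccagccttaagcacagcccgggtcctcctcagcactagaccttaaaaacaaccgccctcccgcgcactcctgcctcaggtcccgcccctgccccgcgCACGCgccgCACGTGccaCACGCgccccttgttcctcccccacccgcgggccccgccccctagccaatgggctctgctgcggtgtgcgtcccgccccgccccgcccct
Ankrd37: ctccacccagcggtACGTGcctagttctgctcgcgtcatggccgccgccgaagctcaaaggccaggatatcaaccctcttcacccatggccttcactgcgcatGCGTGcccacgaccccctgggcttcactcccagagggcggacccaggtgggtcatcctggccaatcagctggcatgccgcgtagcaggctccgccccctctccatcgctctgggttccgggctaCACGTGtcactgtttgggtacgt
Pdk1: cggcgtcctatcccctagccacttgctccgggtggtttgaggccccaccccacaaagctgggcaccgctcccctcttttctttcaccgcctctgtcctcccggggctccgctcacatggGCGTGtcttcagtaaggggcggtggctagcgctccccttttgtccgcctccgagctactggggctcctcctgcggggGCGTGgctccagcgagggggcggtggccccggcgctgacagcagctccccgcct
Aldoc: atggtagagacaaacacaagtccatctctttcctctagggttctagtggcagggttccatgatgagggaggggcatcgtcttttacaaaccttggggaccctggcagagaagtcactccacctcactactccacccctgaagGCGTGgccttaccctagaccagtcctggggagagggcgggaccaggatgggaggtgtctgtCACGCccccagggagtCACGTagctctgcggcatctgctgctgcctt
Eno2: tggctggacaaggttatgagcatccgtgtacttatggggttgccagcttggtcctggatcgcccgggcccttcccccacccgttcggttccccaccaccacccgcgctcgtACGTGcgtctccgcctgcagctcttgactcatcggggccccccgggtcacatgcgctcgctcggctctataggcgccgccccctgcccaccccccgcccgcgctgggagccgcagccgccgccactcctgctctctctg
Pfkm: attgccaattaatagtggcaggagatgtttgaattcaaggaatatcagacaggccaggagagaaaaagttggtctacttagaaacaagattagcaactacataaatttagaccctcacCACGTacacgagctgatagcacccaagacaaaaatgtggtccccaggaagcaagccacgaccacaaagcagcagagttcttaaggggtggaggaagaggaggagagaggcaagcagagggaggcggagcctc

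With these matches Bnip3 and Ankrd37 each held 4, Aldoc 3, Pdk1 2 and Eno2 and Pfkm 1 each. Car9, whose group values are described below, has no match in this window, which lies at chr5:62558774-62559023 on the plus strand.
Car9: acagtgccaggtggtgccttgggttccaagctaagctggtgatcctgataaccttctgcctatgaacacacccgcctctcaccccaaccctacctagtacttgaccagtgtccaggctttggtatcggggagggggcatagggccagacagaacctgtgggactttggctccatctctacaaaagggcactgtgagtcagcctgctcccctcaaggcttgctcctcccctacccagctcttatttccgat

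Of all 33469 RefSeq promoters given, 36.7% held at least 1 such match in a window of this length (ACGTG in 16.6%, GCGTG in 25.9%), and of the 11697 measured genes with an entry 46.9% did. Among the members 32 had an entry and 19 of them (59.4%) held a match in at least 1 of their promoters. Matches were also found before members that followed other orders, such as Ldha with 4 and Slc2a1 with 4. Slc16a1 and Hif1a, lowest in vehicle replicate 1 and dDAVP replicate 2, held 3 each. Tpi1 and Epas1, highest in those arrays, held 0. Base composition was not matched, and the windows of Bnip3, Pdk1 and Eno2 had a GC content of 72.4%, 69.2% and 69.6%, and that of Pfkm 47.6%, against a median of 51.2% over all promoters. A match is a stretch of letters and no evidence of binding.

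Members with the opposite order were led by a transporter. Slc16a1, the monocarboxylate transporter MCT1, was at 7.94 and 8.99 in vehicle, 8.93 and 8.09 in dDAVP and 8.94 and 9.25 in withdrawal, so that vehicle replicate 1 and dDAVP replicate 2 lay at least 0.84 below every other array. Slc16a3, the transporter MCT4 known for lactate export, did not share this order, at 8.74 and 8.57, 8.76 and 8.74, and 8.54 and 8.37. The alpha subunits of the hypoxia-inducible factors were split. Hif1a was at 10.42 and 10.70 in vehicle, 10.83 and 10.46 in dDAVP and 10.69 and 10.76 in withdrawal, with the arrays that stand apart lowest by 0.24. Epas1, the gene of the factor 2 alpha subunit, was at 7.91 and 7.69, 7.50 and 7.88, and 7.62 and 7.44, with the same arrays highest by 0.19. After cyclic loess these gaps were 0.17 for both.

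Isozymes of the same step therefore differed in their order over the arrays. Aldoa, the main aldolase of most tissues, stayed within 12.01 to 12.11 in all arrays, a range of 0.11, where Aldoc ranged from 8.0 to 9.16. Eno1, the ubiquitous enolase, was lowest in the arrays in which Eno2 was highest, at 12.45 and 12.63 in vehicle, 12.60 and 12.50 in dDAVP and 12.59 and 12.60 in withdrawal. All 3 probe sets of Eno1 had this order, with a gap of 0.09 for the one used. Gapdh, a glycolytic dehydrogenase often taken as a reference gene, was at 12.64 and 12.80, 12.83 and 12.48, and 12.79 and 12.78. All of its 16 probe sets had vehicle replicate 1 and dDAVP replicate 2 lowest, although Gapdh has many near-identical copies in the genome and its probe sets may share signal. Pfkm, the muscle type of phosphofructokinase, was at 10.13 and 9.87, 9.62 and 10.29, and 9.83 and 9.22, with the same arrays highest by 0.26. Pfkl, the liver type, was at 9.45 and 9.25, 9.47 and 9.46, and 9.27 and 8.86, and Pfkp, the platelet type, at 10.39 and 10.81, 10.75 and 10.68, and 10.85 and 10.61, neither in this order. Tpi1 was also highest in these arrays (gap 0.11), whereas Hk2 (0.10) and Pgam1 (0.12, in 1 of 2 probe sets) were lowest. The order of Hk2 was lost after cyclic loess.

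**Figure D2:**
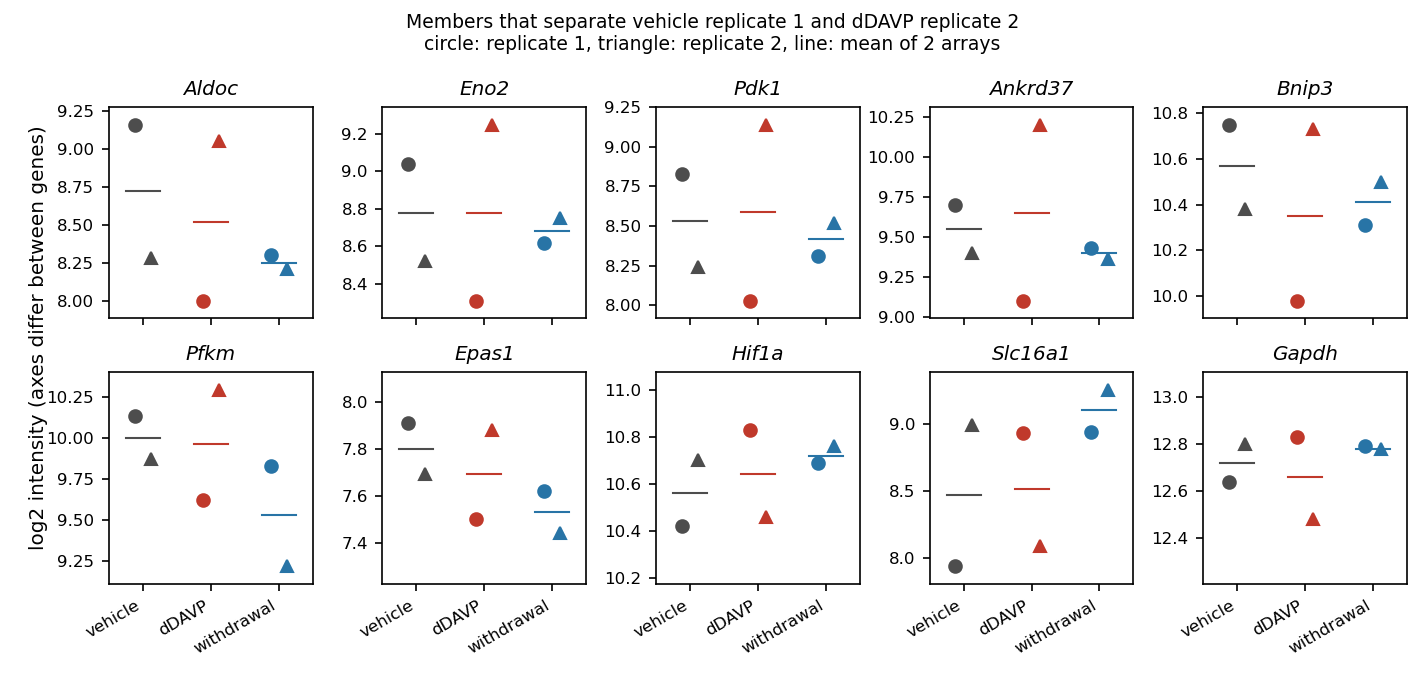
Log2 intensity of 10 members by group, with a circle for replicate 1, a triangle for replicate 2 and a line for the mean of 2 arrays; the axes differ between genes. In the 7 members from Aldoc to Epas1 the vehicle circle and the dDAVP triangle are the highest points, and in Hif1a, Slc16a1 and Gapdh they are the lowest.

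Markers of some other cells, though not of all, moved with the same arrays. Over all genes these arrays were both above all others in 10.9% and both below in 12.7%. Of 5 measured markers of dividing cells 4 were below all other arrays in both, and the summed intensity of the list was 994 and 814 in them against 1777 to 2975 in the others. Of 6 measured endothelial markers 4 were above all other arrays in both, with sums of 8411 and 9065 against 6620 to 7998. Among 3 measured markers of red cells and their precursors 2 were above (874 and 782 against 453 to 568). Of 5 smooth muscle markers 3 were below, with sums of 3937 and 3624 against 4484 to 5330. Of 9 collecting duct markers 4 were below, but the sums overlapped (30454 and 31589 against 30752 to 35099). No marker of intercalated cells, adipocytes or skeletal muscle had either order. Immune cells had 2 of 7 below, with sums of 4019 and 4340 against 4908 to 5688. Proximal tubule had 2 of 7 above. Thin limbs and fibroblasts had 1 above and 1 below each, the thick ascending limb 1 below and urothelium 1 above. Urothelium sums were 933 and 998 against 590 to 857. For the lists given here without sums, the sums overlapped. The part of these cells in the order of the members was not tested. In bulk tissue fewer cells of a type and less RNA per cell cannot be told apart.

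Setting dDAVP against vehicle asks which members respond to the agonist given for 5 d. No member passed an adjusted p of 0.05 (limma, Benjamini-Hochberg over all genes), and 0% of all genes did. Car9, the membrane carbonic anhydrase that acts in pH control at low oxygen, was at 7.11 and 7.09 in vehicle, 6.70 and 6.77 in dDAVP and 7.15 and 7.01 in withdrawal. Both dDAVP arrays were thus below all 4 others, as in 33.6% of all genes, and also after loess, as in 8.21%. The difference was -0.36 ± 0.10 (SE; 95% interval -0.60 to -0.13; 1.29-fold lower), with an unadjusted p of 0.0085 and an adjusted p of 0.549 in limma. Car9 is dim, and genes of its level (the third of 10 classes) had a median difference of -0.18. After cyclic loess it differed by -0.20 (unadjusted limma p 0.0629).

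Car9 was the only 1 of the 34 members at an unadjusted p under 0.05, against 7.43% of all genes. After cyclic loess 2 members were, against 3.25%, and they were Vegfa and Hk1. Vegfa, the growth factor for vessels, was at 7.83 and 8.0 in vehicle, 8.20 and 8.08 in dDAVP and 8.21 and 8.11 in withdrawal, a difference of 0.22 ± 0.11 between dDAVP and vehicle that became 0.33 after loess (unadjusted limma p 0.0873 and 0.0257). Hk1, the main hexokinase of most tissues, was at 10.51 and 10.54, 10.64 and 10.75, and 10.51 and 10.51. The dDAVP arrays were the highest for Hk1, by 0.17 ± 0.09 (unadjusted limma p 0.11, and 0.0474 after loess). Pfkfb4, which makes the activator of phosphofructokinase, was at 7.56 and 7.53, 7.27 and 7.33, and 7.64 and 7.41. Its difference of -0.25 ± 0.11 (unadjusted limma p 0.0596) shrank to -0.09 after loess, against a median of -0.15 for genes of its level as deposited.

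Of the glycolytic enzymes 7 of 17 had a difference above 0 and the median was -0.03, against 22.1% above 0 and a median of -0.11 over all genes. Most of these enzymes are bright, and genes in the brightest of 10 classes of level had a median of -0.02. Of the other hypoxia targets 9 of 15 were above 0, with a median of 0.04. With array medians subtracted 12 of 17 and 10 of 15 were above 0, with medians of 0.09 and 0.16. Over all genes 50.7% were, with a median of 0.00. This subtraction moves all genes of an array alike, while bright genes had shifted less than dim ones. After loess 9 of 17 and 9 of 15 were above 0, with medians of 0.02 and 0.06. The values over all genes were then 49.8% and 0.00. Ldha, the lactate dehydrogenase subunit that hypoxia induces, was at 13.04 and 13.16, 13.32 and 13.21, and 13.11 and 13.00, highest in both dDAVP arrays. It differed from vehicle by 0.16 ± 0.10, and its other probe set gave 0.04. Ldhb, the heart type subunit, was at 10.98 and 11.31, 10.90 and 11.02, and 11.41 and 10.97, with no order by group. In 7 members (Hk1, Gpi, Pfkl, Ldha, Slc16a3, Vegfa and Egln1) both dDAVP arrays were above both vehicle arrays, and in 4 (Aldoa, Pkm, Pfkfb4 and Car9) below, against 4.80% and 40.6% of all genes. After loess the counts were 7 and 3, against 15.2% and 14.8% of all genes. In 5 members both dDAVP arrays were above all 4 others, against 3.14% of all genes, and these were Hk1, Gpi, Pfkl, Ldha and Slc16a3. The gap to the next array was 0.10 for Hk1, 0.05 for Ldha, 0.01 for Pfkl and under 0.01 for Gpi and Slc16a3. After loess 4 of these 5 members (without Gpi) kept this order, against 8.60% of all genes. Both dDAVP arrays were below all 4 others in 3 members (Aldoa, Pfkfb4 and Car9), against 33.6% of all genes. After loess this held for 1, Car9, against 8.21% of all genes.

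**Figure D3:**
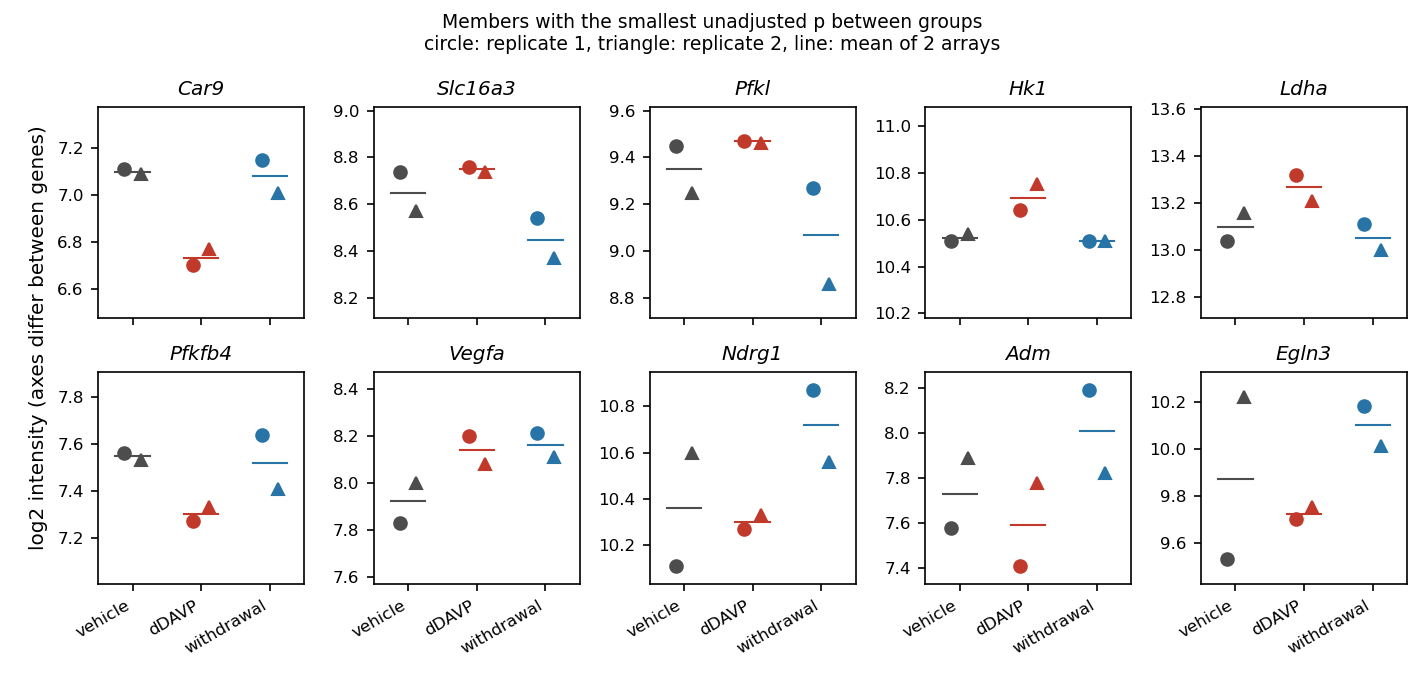
Log2 intensity of 10 members by group, drawn as in the plot of members by array order, with axes that differ between genes. Car9 and Pfkfb4 are lowest in the dDAVP arrays, Hk1 and Ldha highest, and for Slc16a3 and Pfkl the withdrawal group has the lowest mean.

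Without vehicle replicate 1 and dDAVP replicate 2, 1 array was left in each of these groups, so the differences that follow have no replicate check. The other hypoxia targets then had a median of -0.20, from 0.04, with 5 of 15 above 0 and a median of -0.11 for all genes. Car9 then differed by -0.39. Egln3, a prolyl hydroxylase that is itself raised by hypoxia, was at 9.53 and 10.22 in vehicle, 9.70 and 9.75 in dDAVP and 10.18 and 10.01 in withdrawal. Its difference was -0.52 without these arrays and -0.15 with them. Egln1, the main oxygen sensor of the family, varied little, at 9.55 and 9.61, 9.63 and 9.63, and 9.70 and 9.73.

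Withdrawal was then set against dDAVP, which asks what differed once the pump had been out for 3 h. It shares the dDAVP arrays with the first, so a value that was high or low in those arrays moves both. No member passed (smallest adjusted p 0.26 in limma, also over all genes). At an unadjusted p under 0.05 there were 3 of 34 members, against 19.0% of all genes, and after loess 3, against 6.51%. Car9 was higher by 0.35 ± 0.10 in the withdrawal arrays (unadjusted limma p 0.0108), against a median of 0.23 for genes of its level, and by 0.14 after loess (unadjusted limma p 0.155). Slc16a3 differed by -0.30 ± 0.11 (unadjusted limma p 0.0355, and 0.022 after loess). Pfkl differed by -0.40 ± 0.15 (unadjusted limma p 0.0408, and 0.0527 after loess). For Slc16a3 and Pfkl the lowest array was withdrawal replicate 2, without which the differences were -0.21 and -0.19 (unadjusted limma p 0.194 and 0.234). Intercalated cell markers summed to 4148 and 2208 and thick ascending limb markers to 5704 and 3951 in the withdrawal arrays, and their part in these values was not tested. Ldha and Hk1 differed by -0.21 and -0.18 (unadjusted limma p 0.0784 and 0.0918), and by -0.23 and -0.20 after loess (0.0288 and 0.0461), where with Slc16a3 they made up the 3 members. The other probe set of Ldha gave -0.04 as deposited.

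Glycolytic enzymes as a group had a median difference of 0.00, with 8 of 17 above 0, and the other hypoxia targets 0.09, with 11 of 15 above 0, against a median of 0.14 and 74.9% above 0 over all genes. In the brightest of 10 classes of level, which holds most of these enzymes, the median was 0.03. With array medians subtracted the medians were -0.13 and -0.04, with 3 of 17 and 6 of 15 above 0, against 0.02 and 54.7% over all genes. After loess they were -0.03 and 0.06, with 7 of 17 and 10 of 15 above 0, against 0.00 and 50.9% over all genes. In 9 members the withdrawal arrays were both above the dDAVP arrays and in 5 both below, against 49.6% and 8.06% of all genes. After loess the counts were 6 and 5, against 20.3% and 19.1% of all genes. The 9, as deposited, were Aldoa, Slc16a1, Pfkfb4, Car9, Adm, Ndrg1, Egln1, Egln3 and P4ha1, and the 5 were Hk1, Gpi, Pfkl, Ldha and Slc16a3. Ndrg1, a stress gene induced by hypoxia, was at 10.11 and 10.60 in vehicle, 10.27 and 10.33 in dDAVP and 10.87 and 10.56 in withdrawal, a difference of 0.42 ± 0.19 from dDAVP (unadjusted limma p 0.0617). Adm, the vasodilator peptide adrenomedullin, was at 7.58 and 7.89, 7.41 and 7.78, and 8.19 and 7.82, a difference of 0.41 ± 0.19 that was 0.27 after loess (unadjusted limma p 0.0757 and 0.207). Hk2, the inducible hexokinase, was at 7.33 and 7.70, 7.46 and 7.32, and 7.43 and 7.65, with overlapping groups.

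Without vehicle replicate 1 and dDAVP replicate 2 the other hypoxia targets had a median of 0.25 in withdrawal against dDAVP, with 12 of 15 above 0 and a median of 0.17 for all genes. With dDAVP replicate 1 as the only dDAVP array, the spread in this fit came from the 2 withdrawal arrays alone, and the dDAVP array is assumed to vary like them. On that footing 6 members had an unadjusted p under 0.05 in limma, against 18.5% of all genes, and none passed (smallest adjusted p 0.263). They were Eno2 (0.37), Car9 (0.38), Adm (0.60), Bnip3 (0.43), Egln3 (0.40) and Ankrd37 (0.30). Without dDAVP replicate 1 instead, Eno2, Bnip3 and Ankrd37 had the opposite sign (-0.57, -0.32 and -0.80), so that their direction rests on which dDAVP array is used.

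The third comparison, withdrawal against vehicle, asked whether levels 3 h after removal differed from those of rats never given dDAVP. No member had an unadjusted p under 0.05 in limma, against 1.79% of all genes, and none did after loess, against 2.10%. Vegfa had the smallest p, with a difference of 0.24 ± 0.11 (unadjusted limma p 0.0639), followed by Ndrg1 at 0.36 ± 0.19 and Pfkl at -0.28 ± 0.15. The withdrawal arrays were both above the vehicle arrays in 3 members (Vegfa, Egln1 and P4ha1) and both below in 3 (Pfkm, Slc16a3 and Epas1), against 17.6% and 13.1% of all genes, and after loess in 6 and 1, against 16.1% and 16.0%. Medians were -0.01 for the glycolytic enzymes and 0.12 for the other hypoxia targets, against 0.03 for all genes, and the latter was 0.02 without the arrays that stand apart. Over the 3 groups together 1 member, Car9, had an unadjusted p under 0.05 in the moderated F-test of limma (0.0142, adjusted 0.489), against 8.64% of all genes.

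**Figure D4:**
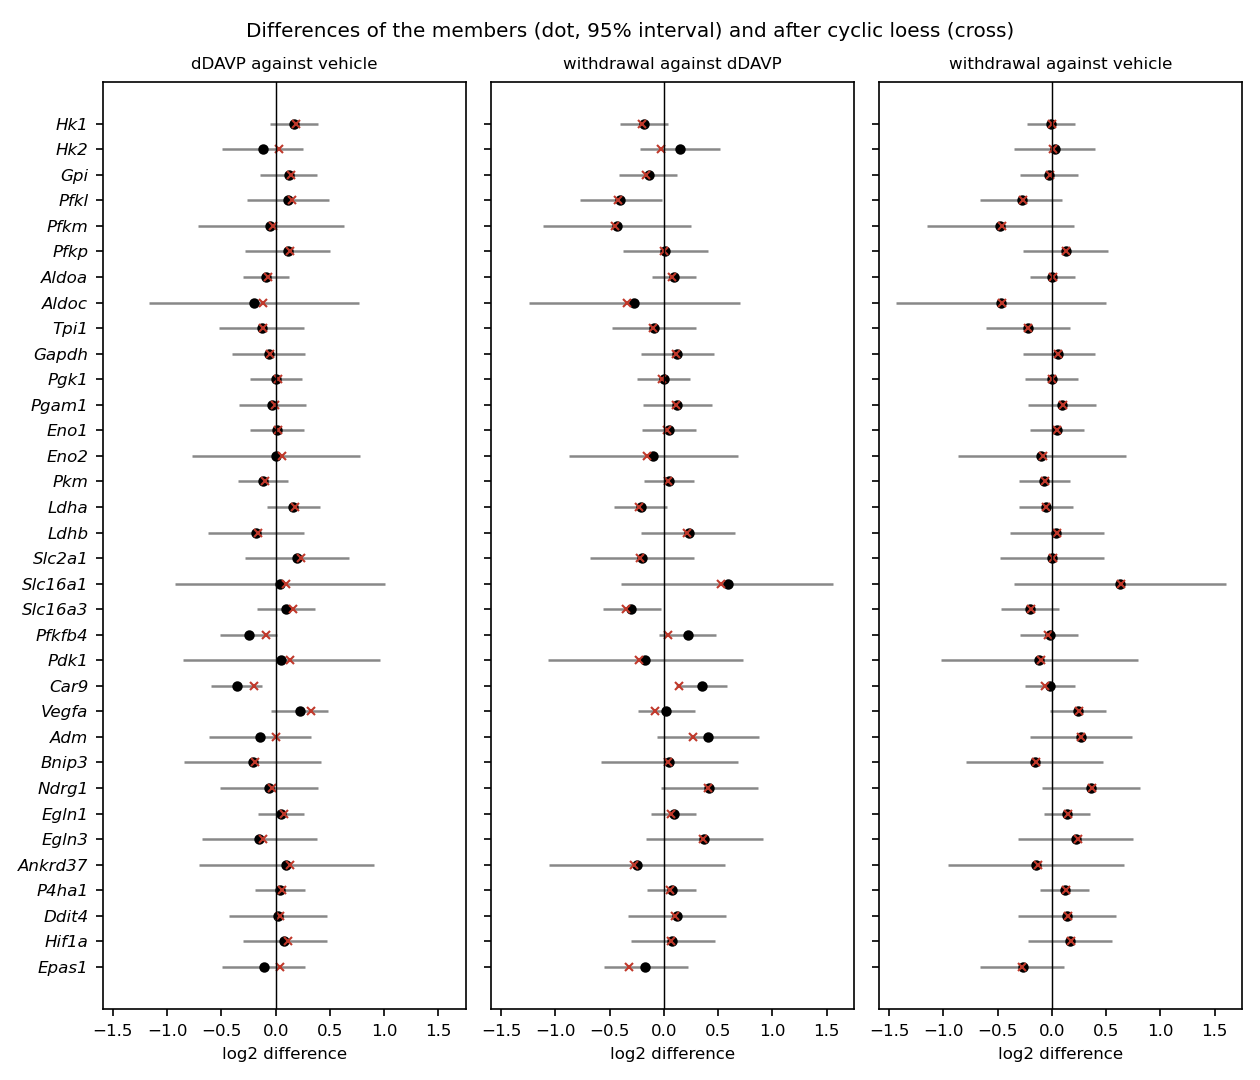
Log2 difference of each of the 34 members in the 3 comparisons, with a dot and its 95% interval as deposited and a red cross after cyclic loess. The intervals that leave out 0 belong to Car9 in the first panel and to Car9, Slc16a3 and Pfkl in the second, and Aldoc, Slc16a1 and Pdk1 have the widest.

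The remaining members varied within narrow bounds. Pgk1, an ATP-making step of glycolysis, ranged from 11.86 to 12.04 over the 6 arrays, Pkm, the pyruvate kinase of most tissues, from 12.21 to 12.37, and Gpi, the isomerase after hexokinase, from 10.77 to 11.06. P4ha1, a collagen prolyl hydroxylase, ranged from 10.67 to 10.86. Wider were Slc2a1, the glucose transporter GLUT1, from 10.18 in withdrawal replicate 2 to 10.81 in dDAVP replicate 1, and Ddit4, an inhibitor of mTORC1 signalling, from 10.52 in vehicle replicate 1 to 11.06 in withdrawal replicate 1. For both the groups overlapped.

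Of 65 further genes of the hypoxia-inducible factor pathway 3 were higher and 1 lower in dDAVP than in vehicle at an unadjusted p under 0.05, or 4 in all (6.15%) against 7.43% of all genes (0.572% higher and 6.85% lower), and none passed. After loess 6 were higher and 0 lower, against 1.78% and 1.47% of all genes. Egln2, the third prolyl hydroxylase, was at 9.86 and 9.84 in vehicle, 10.06 and 10.14 in dDAVP and 9.94 and 9.89 in withdrawal, a difference of 0.25 ± 0.09 (unadjusted limma p 0.0295). The ubiquitin ligase Siah1, which acts on prolyl hydroxylases, differed by 0.23 ± 0.09 and the phosphatase Dusp1 by 0.55 ± 0.19. Hif3a, a further alpha subunit and a dim gene, differed by -0.24, or -0.08 after loess. In withdrawal against dDAVP 5 were higher and 7 lower, or 12 in all (18.5%) against 19.0% of all genes (17.3% higher and 1.64% lower). After loess 1 was higher and 9 were lower, against 3.19% and 3.32% of all genes. Named as deposited, the higher ones included Bhlhe40, a repressor induced by hypoxia (0.68 ± 0.25), Errfi1 (0.30 ± 0.12) and Spag4 (0.35 ± 0.11, or 0.15 after loess), and the lower ones the mitochondrial protein Fam162a (-0.29 ± 0.09), Ankzf1 (-0.34 ± 0.10), the taurine transporter Slc6a6 (-0.43 ± 0.15) and Ccng2 (-0.30 ± 0.11). Slc6a6 was also the 1 gene of this list at an unadjusted p under 0.05 in withdrawal against vehicle (-0.40 ± 0.15). Fam162a was at 11.41 and 11.53 in vehicle, 11.65 and 11.72 in dDAVP and 11.39 and 11.40 in withdrawal, highest in both dDAVP arrays.

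Of 44 further genes of glycolysis, pyruvate and glycogen handling, 1 (2.27%, against 7.43% of all genes) differed at an unadjusted p under 0.05 in dDAVP against vehicle, the hexokinase Hk3 (-0.33 ± 0.10, or -0.16 after loess). In withdrawal against dDAVP 6 differed (13.6%, against 19.0% of all genes). Of these 4 were higher, Hk3 (0.39), Pgam2 (0.31), Pgm3 (0.39) and Minpp1 (0.39), of which Hk3 and Pgam2 are dim and shrank to 0.18 and 0.10 after loess, and 2 were lower, the glucose transporter Slc2a3 (-0.27) and the phosphorylase kinase subunit Phkb (-0.49). In withdrawal against vehicle 1 (against 1.79% of all genes), the liver glycogen phosphorylase Pygl, differed by -0.48 ± 0.18. None of these passed in limma (smallest adjusted p 0.549, 0.26 and 0.995).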

How the data were processed

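Total RNA of the kidney inner medulla was measured on 6 Affymetrix whole-transcript arrays. Per the submitters' processing notes, RMA summarised the probes, and the authors deposited 1 intensity per probe set and array. The RMA version is not given in the sources used here, and neither is a genome build. The deposited intensities are on a linear scale (30.2 to 10778.7), and their log2 was taken. Since RMA equalises probe intensities between arrays, a change of most genes in one direction would be reduced. Detection calls and scan dates were not analysed here, so neither batches nor the distance of a probe set from background was examined, and the number of arrays limits the precision.

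Of 28524 probe sets 14947 carried 1 gene symbol in the platform annotation, 318 several, and 13259 were not listed and stay unnamed. The highest probe set by mean over the arrays stood for each of 14168 genes, of which 509 had several. Entrez numbers of 14916 probe sets were found in the RefSeq table of assembly GRCr8, which changed 0 symbols.

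Comparisons used limma 3.58.1 (R 4.3.3) with 1 mean per group fitted to all 6 arrays (3 residual and 3.21 prior degrees of freedom), no filter on dim genes and Benjamini-Hochberg adjustment over all genes in each comparison. Tests were two-sided, and the procedure was tested on simulated data with noise independent between arrays. There 34% of changes of 0.58 log2 were recovered, 66% of those of 1 and 96% of those of 2, with 9 false calls. The members, the further gene lists and the marker lists were chosen with earlier results of these data known. Values in every array were given for members at an unadjusted p under 0.05, for the 3 with the smallest p in each comparison, for isozyme groups, the hypoxia-inducible factor subunits, Gapdh and Vegfa, and further pathway genes at an unadjusted p under 0.05 were named, at most 4 per list and direction. Other members with all values (Ankrd37, Pdk1, Adm) were chosen after their values were seen. Alternatives were cyclic loess, subtraction of array medians, removal of the dimmest 25% of genes, the mean of a gene's probe sets, a fit to the 4 arrays compared, array weights, an intensity trend, a replicate block and the omission of arrays.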

Additional observations from a re-analysis of the deposited data

How the results depend on the processing

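No alternative turned a called difference, since no member passed. Of the values of single members under the alternatives 1384 moved by less than the spread between arrays among the planned ones and 146 by more. The counts below are members at an unadjusted p under 0.05 in limma. Over all genes the shares for dDAVP against vehicle were 7.43% as deposited, 3.25% after cyclic loess and 3.49% with array medians subtracted. For withdrawal against dDAVP they were 19.0%, 6.51% and 8.94%, and for withdrawal against vehicle 1.79%, 2.10% and 1.86%. Omitting arrays left 1 array in a group, so the counts of those fits are left out here. No share over all genes is given here for the intensity trend or for the alternatives in the F-test. Their counts thus cannot be set beside that of all genes. In dDAVP against vehicle the count of 1 became 2 after cyclic loess, 4 with array medians subtracted and 2 with an intensity trend. In withdrawal against dDAVP the count of 3 became 5 with array medians subtracted. In withdrawal against vehicle the count stayed at 0 after cyclic loess and with array medians subtracted. In the F-test the count of 1 became 0 after cyclic loess, 4 with array medians subtracted and 2 with an intensity trend. With both arrays that stand apart left out, the spread comes from the 2 withdrawal arrays alone. The cause of these moves was not tested.

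The median of the glycolytic enzymes moved to 0.09 (dDAVP against vehicle) and -0.13 (withdrawal against dDAVP) with array medians subtracted, and that of the other hypoxia targets to 0.16 and -0.04. Over all genes the medians were then 0.00 and 0.02. Without the arrays that stand apart the medians of the other hypoxia targets were -0.20, 0.25 and 0.02 in the 3 comparisons, and without single arrays -0.09 to 0.05, 0.08 to 0.25 and -0.01 to 0.13. Genes past an adjusted p of 0.05 numbered 0 to 2 without single arrays in the first 2 comparisons and in the F-test, the 2 arising without dDAVP replicate 1.

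The labels do not say whether the replicate numbers pair the samples. Deviations from the group means correlated over all genes at -0.623 between same-numbered vehicle and dDAVP arrays. They correlated at -0.002 between vehicle and withdrawal and at -0.111 between dDAVP and withdrawal. With 2 arrays per group, and with the arrays that stand apart among them, these values cannot settle whether equal numbers share anything. With the replicate number as a block no gene passed. At an unadjusted p under 0.05 there were 1, 3 and 0 of 34 members in the 3 comparisons. Among all 14168 genes there were 490, 1518 and 128. The count of members was 1 in the F-test. For dDAVP against vehicle in a fit to those 4 arrays it was 0, against 178 of all genes. A block with crossed numbers was chosen after seeing the data. For dDAVP against vehicle it gave 43 genes past an adjusted p of 0.05, with no member among them. At an unadjusted p under 0.05 it gave 3 members, against 3001 of all genes. For withdrawal against dDAVP 0 genes passed, and 6 members had an unadjusted p under 0.05, against 2262 of all genes.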

Other observations

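The order of arrays described for the members was also counted in further genes of the same pathways. Vehicle replicate 1 and dDAVP replicate 2 were both above or both below the other 4 arrays in 17 of 44 further genes of glycolysis, pyruvate and glycogen handling (38.6%) and in 19 of 65 further genes of the hypoxia-inducible factor pathway (29.2%), against 23.6% of all genes. After cyclic loess the shares were 40.9% and 29.2%, against 30.4% of all genes. The genes past a gap of 0.2 log2 were named after their values were seen. They made up 13.6% of the first list and 10.8% of the second, against 6.19% of all genes. After cyclic loess these shares were 15.9% and 7.69%, against 6.63%. Higher in these arrays were Ldhc, the lactate dehydrogenase of the testis, by 0.50, Pdk4, a further pyruvate dehydrogenase kinase, by 0.42, Ero1a, an oxidase of protein folding, by 0.31, Ldhd by 0.28, the phosphorylase kinase subunit Phkb by 0.25 and the glycogen phosphorylase Pygb by 0.23. Lower were the ADP-dependent glucokinase Adpgk by 0.44, Bnip1 by 0.43 and the collagen cross-linking enzyme Lox by 0.39. So were Ier3 by 0.27, Maff by 0.26, the transferrin receptor Tfrc by 0.24 and P4hb by 0.21. After cyclic loess the gaps of Tfrc and P4hb were 0.08 and 0.14, under 0.2, and Tigar was lower by 0.23, from 0.17 as deposited.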
